A study of Danio rerio with 8 samples.

Results

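The genes described here encode the signal transducers and activators of transcription (STATs) and a pair of the Janus kinases (JAKs) that switch them on. The members are the 10 genes of the zebrafish count table that carry the symbols *stat1a*, *stat1b*, *stat2*, *stat3*, *stat4*, *stat5a*, *stat5b*, *stat6*, *jak1* and *jak2a*, 10 of 32520 genes in all. They comprise 8 STAT genes and 2 kinase genes, and all 10 had enough reads to enter the test, as did 17144 genes of the whole table. The rule names the members by symbol and uses no measured value, but they were chosen with earlier results of these data known.

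A cytokine that binds its receptor brings together the JAKs held on the receptor tails, which then phosphorylate each other, the receptor and the STAT proteins that dock there. Phosphorylated STATs pair, enter the nucleus and bind the promoters of their target genes, among which the SOCS genes encode inhibitors that shut the receptor down again. In the zebrafish retina Stat3 is known from Müller glia, the radial glia that respond to photoreceptor injury and can regenerate neurons. These data hold RNA levels and carry no information on phosphorylation.

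Retinas of *bbs2* -/- homozygotes were compared with those of *bbs2* +/+ wild-type siblings from crosses of heterozygous fish, with 4 samples of each genotype. Bbs2 is a subunit of the BBSome, a complex that moves membrane proteins in cilia, and mutants of this line lose cones progressively. All fish were 6 months old, of both sexes, and were kept in the dark for 16 to 20 hours before dissection, which left most of the retinal pigment epithelium behind. Each sample pooled a pair of retinas and gave 1 library of ribosome-depleted, stranded total RNA, so each n counts libraries, and no fish carried any other labelled allele or treatment. The labels call the samples biological replicates and name no batch, and the reads assigned to genes numbered 6279179 to 8442827 per wild-type library and 7289910 to 11496801 per mutant library. *bbs2* itself was lower in every mutant library, at 27.3 to 28.8 against 39.8 to 45.5 CPM (counts scaled to library size after trimmed-mean scaling), which matches the labels. Summed markers of cones were at 8129 CPM or more and those of rods at 20521 CPM or more in every library, so the tissue carried the RNA of a retina.

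Of the 10 genes, 5 rose in mutants (*stat1a*, *stat2*, *stat3*, *stat6* and *jak1*), 1 fell (*stat5a*) and 4 did not pass the test (*stat1b*, *stat4*, *stat5b* and *jak2a*). The test was edgeR's quasi-likelihood test with Benjamini-Hochberg adjustment over all 17144 genes, called at an adjusted p (FDR) under 0.05. Of all tested genes 28.1% were called, 15.2% higher and 13% lower in mutants, so the 60% of members called can be read against 28.1%. The median log2 fold change (log2FC, mutant over wild-type) was 0.65 over the members and -0.01 over all tested genes. Mutant libraries lay wholly above wild-type libraries for the 5 members that rose. They lay wholly below them for 1 member, *stat4*, which did not pass the test, while *stat5a* overlapped. Of all tested genes 15.4% lay wholly above and 13.9% wholly below (29.3% in either direction). Each of the 10 members had at least 1 wild-type library above the level of 1.19 CPM that the filter on low counts used. Retinas are mixtures of cells, and in bulk samples a change in the number of cells of a type cannot be told apart from a change in RNA per cell.

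**Figure D1:**
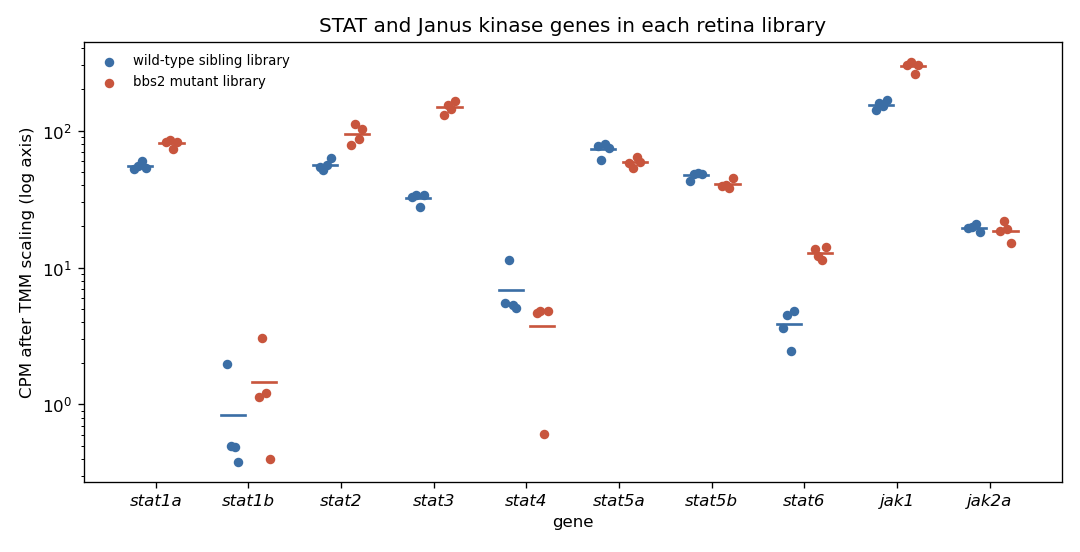
Level of each of the 10 genes in each of the 8 libraries, in CPM on a log axis, with wild-type siblings and *bbs2* mutants as separate points. The 4 mutant points sit above the 4 wild-type points for *stat1a*, *stat2*, *stat3*, *stat6* and *jak1*, and *stat3* moves from 27.6 to 33.9 CPM up to 129 to 164 CPM.

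*stat3*, the STAT used by interleukin-6, leukaemia inhibitory factor and leptin, showed the largest change among the members. Its level was 32.8, 33.6, 27.6 and 33.9 CPM in wild-type siblings 1 to 4 and 129, 155, 145 and 164 CPM in mutants 1 to 4. Every mutant library was more than 3 times as high as any wild-type library, and the groups lay far apart. The log2FC was 2.21 (SE 0.09, 95% interval 2.01 to 2.41, edgeR adjusted p = 5.07e-10, n = 4 each), a 4.64-fold rise. By p-value *stat3* stood at place 6 of the 17144 tested genes. Its log2FC stayed between 2.14 and 2.31 under all the alternatives tried.

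*jak1*, the kinase that mammals use at interleukin-6 type, interferon and common gamma chain receptors, rose as well. It was measured at 142, 159.9, 150.4 and 167 CPM in wild-type siblings and at 301, 316, 259 and 304 CPM in mutants. The lowest mutant library was well above the highest wild-type library. Its log2FC was 0.93 (SE 0.08, 95% interval 0.76 to 1.09, edgeR adjusted p = 4.57e-07, n = 4 each), a 1.90-fold rise.

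Genes for gp130, its partner chains and the related leptin receptor changed in both directions. Of 7 tested receptor genes of this family 4 rose and 2 fell, where 15.2% of all tested genes were called higher and 13% lower. Their median log2FC was 1.35. *lifrb* passed the filter only through the mutants, and without it 3 rose and 2 fell of 6, with a median of 1.05. *il6st*, which encodes gp130 itself, rose from 76.8 to 84.8 CPM in wild-type siblings to 206 to 261 CPM in mutants (log2FC 1.53, SE 0.09, edgeR adjusted p = 5.55e-09). The leptin receptor gene *lepr* rose from 1.52 to 4.27 CPM to 11.8 to 25 CPM (2.84), and the interleukin-11 receptor gene *il11ra* from 20.2 to 22.6 CPM to 28.9 to 39.9 CPM (0.76). The copies of the leukaemia inhibitory factor receptor gene went opposite ways. *lifrb* went from at most 0.758 CPM to between 7.65 and 15.7 CPM (log2FC 5.47, or 7.52 without wild-type 4), while *lifra* fell from 109 to 121 CPM to 87.5 to 91.8 CPM (-0.33, edgeR adjusted p = 0.00169). *cntfr*, for the ciliary neurotrophic factor receptor, also fell (-0.59).

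Few ligands of these receptors had enough reads. Only 2 of 10 ligand genes in the table entered the test, and 1 of them rose, *crlf1a*, a partner of cardiotrophin-like cytokines (log2FC 1.64, SE 0.43, edgeR adjusted p = 0.0095). Among all tested genes 15.2% were called higher. With no filter 4 ligand genes rose, and 3 did without any 1 of the wild-type libraries or without mutant 3. *il6* and *il11b* had no count in any library. *il11a*, the other zebrafish copy of interleukin-11, had 3 counts over the 4 wild-type libraries and 59 over the 4 mutant libraries. Scaled to library size this is a ratio of 15.2, with an exact 95% interval of 4.94 to 75.6 that covers counting error only.

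Genes known as STAT3 targets in mammals rose more often than they fell, with 12 higher and 1 lower of 20 tested and a median log2FC of 0.67. Of all tested genes 15.2% were called higher and 13% lower, with a median of -0.01. The STAT3-induced inhibitor genes *socs3a* and *socs3b* led the list. *socs3a* was at 4.31, 1.88, 1.95 and 8.34 CPM in wild-type siblings and at 58.7, 85.7, 39.3 and 87.2 CPM in mutants (log2FC 4.04, SE 0.51, edgeR adjusted p = 0.00129, and 4.69 without wild-type 4). *socs3b* was at 4.31, 6.00, 5.85 and 5.43 CPM and at 39.1, 51.2, 28.3 and 48.3 CPM (2.93, SE 0.20, edgeR adjusted p = 2.01e-07). For both copies the groups did not overlap. The cell cycle gene *ccnd1* (1.88), the acute-phase transcription factor gene *cebpb* (1.90) and the growth regulator *myca* (0.79) rose too. *hif1aa*, for a subunit of the hypoxia-inducible factor, fell (-0.72), at 14.6 to 25.9 CPM in wild-type siblings and 10.0 to 14.1 CPM in mutants. The other copy, *hif1ab*, rose from 589 to 604 CPM to 605 to 811 CPM (0.24, edgeR adjusted p = 0.0384).

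*stat1a* rose, and so did *stat2*, whose product joins Irf9 in the response to type I interferon. *stat1a* was at 52.9, 55.3, 59.9 and 53.2 CPM in wild-type siblings and at 83.1, 85.7, 73.5 and 82.9 CPM in mutants. The groups did not overlap, and the log2FC was 0.55 (SE 0.08, 95% interval 0.38 to 0.72, edgeR adjusted p = 7.86e-05, n = 4 each). *stat2* was at 54.2, 52.0, 56.1 and 63.4 CPM in wild-type siblings and at 78.2, 112, 87.2 and 103 CPM in mutants. It spread more among the mutants than *stat1a* did, again with no overlap, and rose by a log2FC of 0.75 (SE 0.11, 95% interval 0.52 to 0.98, edgeR adjusted p = 9.56e-05). The intervals of these genes and of *stat3* do not overlap, although no test of that difference was run. *irf9*, for the DNA-binding partner of Stat2, was at 6.13, 1.38, 1.59 and 4.42 CPM in wild-type siblings and at 21.1, 20.8, 16.5 and 22.1 CPM in mutants (log2FC 2.62, SE 0.36, edgeR adjusted p = 0.000479).

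*stat1b* was close to the limit of detection. It had 12, 4, 4 and 3 counts in wild-type siblings and 11, 32, 14 and 3 counts in mutants. The groups overlapped, and the log2FC of 0.91 had a 95% interval from -0.45 to 2.27 (edgeR adjusted p = 0.321). Without wild-type 1 the log2FC was 1.68 and without mutant 2 it was 0.26, so single libraries set its value. A change in *stat1b* of the size seen in *stat1a* was not detectable at this depth.

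Of the kinases that serve interferon receptors, *jak1* is described above and *tyk2*, which mammals use at type I interferon and interleukin-12 receptors, is not a member. *tyk2* was at 32.5, 32.8, 38.1 and 18.1 CPM in wild-type siblings and at 50.6, 48.6, 44.3 and 44.5 CPM in mutants. The groups did not overlap, and the log2FC was 0.63 (SE 0.18, edgeR adjusted p = 0.0236). This call did not hold with no filter on low counts (adjusted p = 0.0535) or without mutant 1, 2 or 4 (0.0672, 0.0613 and 0.0511).

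Interferon receptors and ligands were read as lists. Of 10 interferon receptor genes listed, only 6 were found by symbol and 5 were tested, and *crfb5*, *crfb6*, *crfb13* and *crfb17* were not found. Of the 5 tested 1 rose, *crfb4*, a chain shared by class II cytokine receptors. The median was 0.32, or 0.25 without it. The share that rose was near the 15.2% of all tested genes called higher, but it rested on *crfb4* alone. Of the other 4 tested receptor genes 0 passed the test. *crfb4* passed the filter only through the mutants, at 0.125 to 0.83 against 1.22 to 2.98 CPM (log2FC 2.22). Of the 6 interferon ligand genes 4 had no count in any library and 1 was tested, *ifnphi3*, with a log2FC of -0.14 (edgeR adjusted p = 0.903). The receptor count was 2 with library totals, with no filter and without mutant 2.

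*stat6*, the STAT of interleukin-4 and interleukin-13, rose from a low level. Its values were 3.65, 4.50, 2.44 and 4.80 CPM in wild-type siblings and 13.6, 12.1, 11.3 and 14.0 CPM in mutants. The groups did not overlap. The log2FC was 1.72 (SE 0.20, 95% interval 1.29 to 2.16, edgeR adjusted p = 1.29e-05, n = 4 each), a 3.30-fold rise, and only *stat3* changed more among the called members. Both interleukin-4 receptor copies in the table rose, *il4r.1* from 0.166 to 1.64 CPM to 3.65 to 7.63 CPM (2.68, edgeR adjusted p = 0.000208) and *il4r.2* from at most 1.16 CPM to between 1.74 and 5.01 CPM (2.96, or 3.75 without wild-type 1). *il2rga*, for the common gamma chain that interleukin-4 shares with other cytokines, rose by 1.89. The other common gamma chain copy, *il2rgb*, was at 3.98 to 6.32 CPM in wild-type siblings and 2.01 to 4.22 CPM in mutants. It did not pass the test (-0.63, edgeR adjusted p = 0.0928), nor did the interleukin-13 receptor gene *il13ra1* (-0.35, edgeR adjusted p = 0.374). *il4r.2* and *il2rga* passed the filter only through the mutants.

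*stat5a* and *stat5b*, the STATs of prolactin, growth hormone and many blood cell cytokines, did not rise. *stat5a* was at 76.9, 60.9, 80.1 and 75.3 CPM in wild-type siblings and at 58.3, 53.4, 64.7 and 59.0 CPM in mutants. Wild-type 2 fell within the range of the mutants, and the log2FC was -0.32 (SE 0.09, 95% interval -0.52 to -0.11, edgeR adjusted p = 0.0202). The call was lost with library totals as scaling (adjusted p = 0.109), with log2 TPM (0.0850), without wild-type 3 (0.0638) and without mutant 2 (0.0701), with the sign kept in each. *stat5b* was at 42.6, 48.7, 49.0 and 48.4 CPM in wild-type siblings and at 39.5, 40.3, 38.0 and 45.5 CPM in mutants. These groups overlapped in 1 library of each genotype, and the log2FC of -0.21 did not pass the test (SE 0.09, edgeR adjusted p = 0.0904).

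*jak2a*, a copy of the kinase that mammals use at the receptors of growth hormone, prolactin and erythropoietin, overlapped between the genotypes and spread more among the mutants. It was at 19.4, 19.8, 20.7 and 18.2 CPM in wild-type siblings and at 18.4, 21.9, 19.0 and 15.1 CPM in mutants. The log2FC was -0.06 with a 95% interval from -0.33 to 0.20 (edgeR adjusted p = 0.757), and its sign turned with library totals as scaling and without mutant 4. The other copy, *jak2b*, ran from 64.7 to 77.2 CPM in wild-type siblings and from 64.9 to 69.0 CPM in mutants, with a log2FC of -0.07 (SE 0.08, edgeR adjusted p = 0.562, and 0.03 with library totals).

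Of the receptor genes for prolactin and growth hormone, which signal through JAK2 and STAT5 in mammals, *prlra* and *ghra* fell. The prolactin receptor gene *prlra* was at 451 to 629.7 CPM in wild-type siblings and at 177 to 214 CPM in mutants (log2FC -1.47, SE 0.11, edgeR adjusted p = 4.81e-07), and *ghra*, for a growth hormone receptor, fell by 0.66. The other growth hormone receptor copy, *ghrb*, did not pass the test (-0.83, edgeR adjusted p = 0.111, groups overlapping), and the other prolactin receptor copy, *prlrb*, was too low to test, with 0 counts over the wild-type and 7 over the mutant libraries. Of 16 tested genes in the list of other JAK-coupled receptors 5 rose and 2 fell, with a median log2FC of 0.09. Without *il12rb2*, *il2rga* and *il4r.2*, which passed the filter only through the mutants, 2 rose and 2 fell of 13, with a median of -0.12. The shares of these 13 are near the 15.2% higher and 13% lower of all tested genes. The *ghra* call was lost with library totals, on log2 TPM and without wild-type 2, wild-type 3 or mutant 4. The 5 of this list that rose were *il4r.1*, *il4r.2*, *il2rga*, *il12rb2* and *csf3r*, the last a neutrophil receptor gene (2.89). Of 10 genes known as STAT5 targets in mammals 3 rose and none fell (median 0.36), against the same 15.2% and 13% of all tested genes. The 3 were the cyclin genes *ccnd1* and *ccnd2a* (0.71) and the inhibitor gene *socs2* (0.59). Of 15 alternatives, *ccnd2a* lost its call in 8, with no filter and the replicate block among them, and *socs2* in 5, each without 1 library, and the count was 1 without wild-type 4, mutant 2 or mutant 4.

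The copies of a gene could be compared with each other within a library. In log2(TPM + 0.1), where TPM is a transcript level corrected for gene length, the difference *stat5b* minus *stat5a* ran from -1.37 to -0.84 in wild-type siblings and from -1.28 to -0.89 in mutants. The genotypes differed by 0.10 in this difference (exact permutation test over libraries, two-sided, p = 0.486, n = 4 each). *stat1b* minus *stat1a* differed by 0.07 (exact permutation p = 0.943) and *jak2b* minus *jak2a* by 0.02 (exact permutation p = 0.914). Over these 3 pairs each adjusted p was 0.943, and the smallest p the 70 arrangements allow is 0.0286. *stat5b* made up 31.1 ± 3.36% (SD, n = 4) of the pair's TPM in wild-type siblings and 32.7 ± 2.71% in mutants, and *jak2b* 67.6 ± 1.20% and 67.8 ± 3.46% of its pair. *stat1b* made up 1.5 ± 1.41% and 1.73 ± 1.25%, with a spread nearly as large as the share. An unequal change of the copies was not detected, which does not show that they changed alike.

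*stat4*, the STAT of interleukin-12 in lymphocytes, was lower in every mutant library without passing the test. It had 33, 91, 44 and 40 counts in wild-type siblings and 45, 50, 7 and 36 counts in mutants, or 5.47, 11.4, 5.37 and 5.05 against 4.63, 4.81, 0.609 and 4.82 CPM. Wild-type 2 and mutant 3 each stood apart from their groups, and between the other 6 libraries the values differed little. The log2FC was -0.90 (SE 0.53, 95% interval -2.12 to 0.31, edgeR adjusted p = 0.257). An interleukin-12 receptor gene, *il12rb2*, went the other way, from at most 0.732 CPM to between 2.41 and 2.98 CPM (log2FC 2.92, edgeR adjusted p = 0.00191, and 3.71 without wild-type 3). It passed the filter only through the mutants. The similarly named *il12rb2l* was at 13.5 to 17.7 CPM in wild-type siblings and 15.9 to 18.2 CPM in mutants. Neither *il12rb2l* (0.12, edgeR adjusted p = 0.520) nor *il23r* (-0.63, edgeR adjusted p = 0.104) passed the test. *jak3*, the kinase of the common gamma chain in mammals, was too low to test, with 1, 3, 0 and 3 counts in wild-type siblings and 10, 24, 9 and 13 counts in mutants (ratio 6.16, exact 95% interval 2.80 to 16.0, counting error only). Its mutant libraries lay wholly above the wild-type libraries, as they did for 5.33% of all genes below the filter that had a count. Those genes were not matched to *jak3* for count level.

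**Figure D2:**
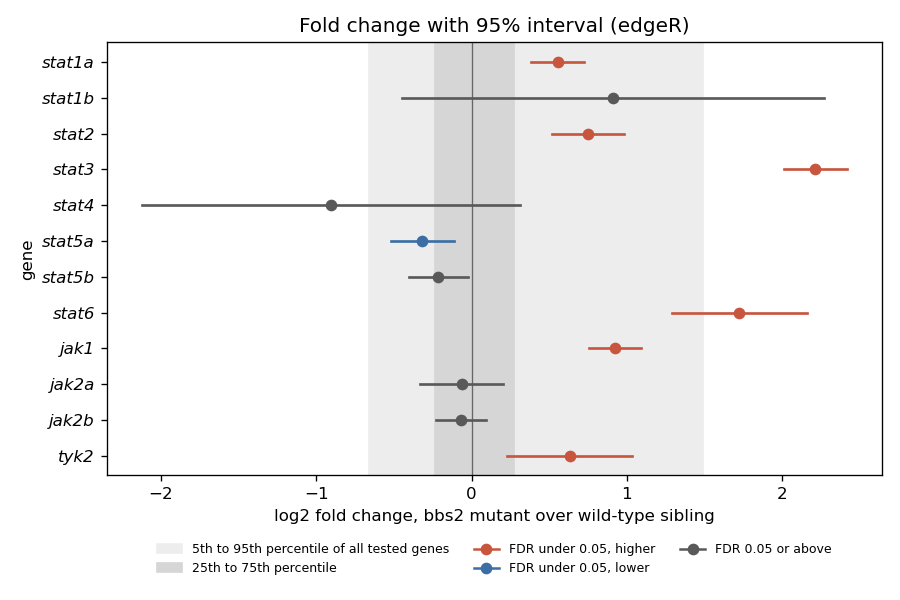
Log2 fold change of mutants over wild-type siblings with its 95% interval (edgeR) for the 10 genes and for *jak2b* and *tyk2*, over grey bands that hold the middle of all 17144 tested genes. *stat3* (2.21) and *stat6* (1.72) lie beyond the 95th percentile of all genes (1.49), while the intervals of *stat1b*, *stat4*, *jak2a* and *jak2b* include 0.

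Because TPM corrects for length, the members could be ordered by level. In wild-type siblings *stat5a* came first with 51.3 ± 6.11 TPM (SD, n = 4) and *jak1* second with 42.5 ± 2.87 TPM, and their ranges overlapped. *stat5b* and *stat1a* followed at 23.0 TPM each, then *stat3* at 17.1 ± 1.28 and *stat2* at 15.7 ± 1.1 TPM, both pairs with overlapping ranges. *jak2a* (7.79 TPM), *stat4* (2.01), *stat6* (1.93) and *stat1b* (0.346) were lowest, and *stat4* and *stat6* overlapped. In mutants *jak1* (82.6 ± 12.4 TPM) and *stat3* (80.4 ± 8.21) came first and overlapped each other, and every library of *stat3* was above every library of *stat5a* (41.8 ± 3.92 TPM). *stat1a* (34.5), *stat2* (26.8) and *stat5b* (20.3) came next, with ranges that overlapped their neighbours. Within each of the 4 mutant libraries the order *stat5a*, *stat1a*, *stat2*, *stat5b* held. *jak2a* (7.52), *stat6* (6.57), *stat4* (1.14) and *stat1b* (0.606) were again lowest. Among all tested genes ordered by TPM, *stat3* moved from percentile 59.2 in wild-type siblings to 93.7 in mutants, *jak1* from 83.5 to 93.9 and *stat6* from 11.8 to 29.6.

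The make-up of the STAT transcripts changed with these levels. The 8 STAT genes summed to 131, 129.97, 143 and 133 TPM in wild-type siblings and to 221, 213, 185 and 229.99 TPM in mutants, with no overlap. *stat3* accounted for 12.8 ± 1.47% of the sum in wild-type siblings and 37.9 ± 1.6% in mutants, where it ranged from 35.6 to 39.4%. *stat5a* went from 38.1 ± 3.32% to 19.8 ± 2.28% and *stat5b* from 17.1 ± 1.24% to 9.54 ± 0.456%. These shares sum to the whole, so a larger share of *stat3* lowers the others. *stat1a*, at 17.1 ± 1.04% and 16.2 ± 1.21%, and *stat2*, at 11.7 ± 0.729% and 12.6 ± 1.38%, held shares that overlapped between the genotypes. *stat6* rose from 1.45% to 3.08% of the sum and *stat4* went from 1.51% to 0.520%.

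**Figure D3:**
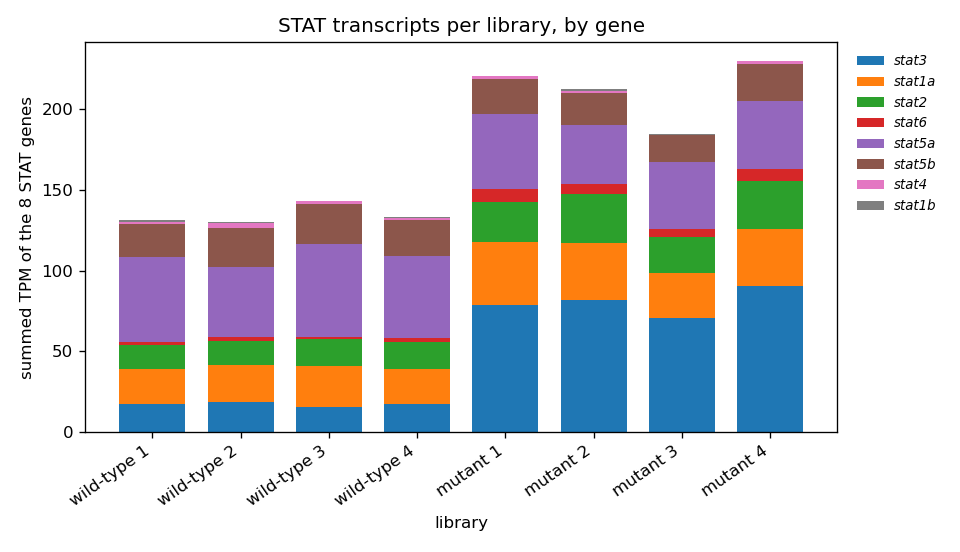
Summed TPM of the 8 STAT genes in each of the 8 libraries, stacked by gene, from 0 on a linear axis. The mutant stacks reach 185 to 229.99 TPM against 129.97 to 143 TPM in wild-type siblings, and the *stat3* segment takes 37.9% of them on average against 12.8%.

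In RefSeq's annotation of the assembly GRCz12tu, which is not the build of the counts and was read only for names and order, *stat3* lies next to *stat5a* and *stat4* next to *stat1b*. *stat3* and *stat5a* changed in opposite directions, as the values above show. The same annotation places long noncoding RNAs over *stat1b*, *stat4*, *jak3* and *tyk2*. Nothing read here says whether the counting used strand, so the counts of these 4 genes are uncertain by any reads of their neighbours.

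The inhibitors and adaptors of the pathway were read against the 15.2% of all tested genes called higher. Of 11 tested SOCS genes 4 rose and none fell, with a median log2FC of 0.35, and besides *socs3a*, *socs3b* and *socs2* the fourth was *socs7* (0.34). Of 11 tested genes for PIAS proteins and phosphatases, which bind or dephosphorylate STATs and JAKs, 2 rose and none fell (median 0.04), a share near that of all tested genes. These were *ptprc*, the leukocyte phosphatase CD45, from 3.75 to 4.97 CPM to 13.2 to 21.2 CPM (1.95, edgeR adjusted p = 1.14e-06), and *ptpn6*, the blood cell phosphatase SHP-1 (1.72). Of 11 adaptor genes 5 rose and none fell (median 0.21), among them *gab1*, for a docking protein of gp130 signalling (1.03, edgeR adjusted p = 5.2e-05), *sh2b3*, for an adaptor that restrains JAK2 in mammals (1.3), and the ubiquitin ligase genes *cblb* (0.44) and *cbl* (0.32). The SOCS count fell to 2 without wild-type 4 or mutant 2, and the adaptor count to 2 on log2 TPM and to 3 without wild-type 2 or mutant 1, while the phosphatase list had 5 calls with library totals.

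**Figure D4:**
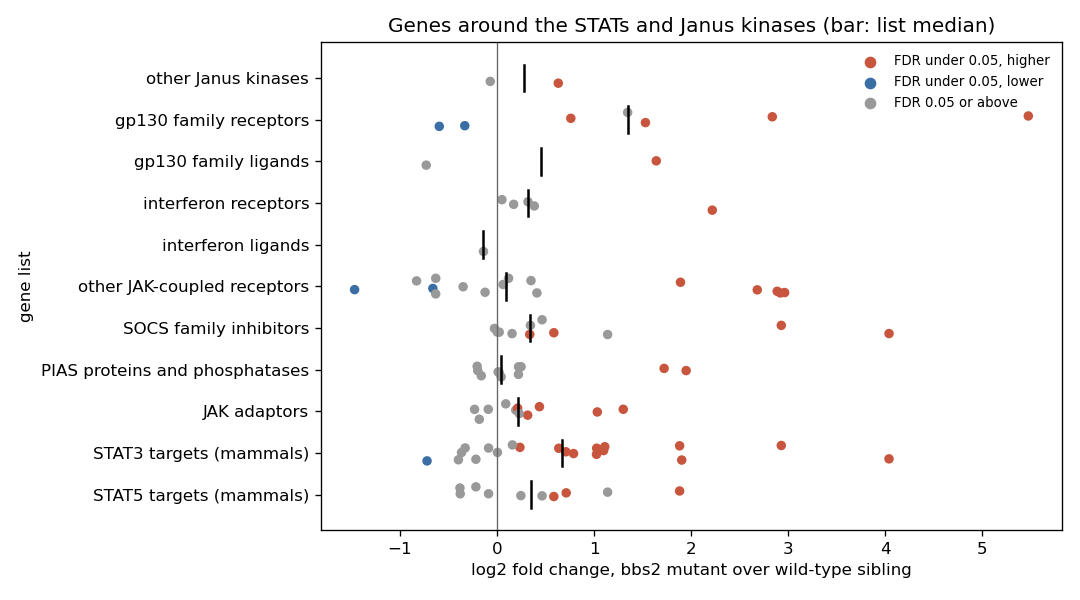
Log2 fold change (edgeR, mutant over wild-type sibling) of each tested gene in the lists of receptors, ligands, inhibitors, adaptors and targets, with a bar at each list's median. The medians run from -0.14 for the single interferon ligand gene tested to 1.35 for the gp130 family receptors, against -0.01 over all tested genes.

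Marker RNA of several cell types differed between the genotypes as well, where 15.2% of all tested genes were called higher and 13% lower. Which cells carried the members was not measured. All 14 tested markers of microglia and macrophages rose (median log2FC 2.00). Of these *marco* passed the filter only through the mutants, and the other 13 all rose (median 1.99). The summed level of these markers went from 255 to 332 CPM in wild-type siblings to 537 to 647 CPM in mutants. Without *apoeb*, which had the most counts of them, the sum was 58.0 to 83.4 against 224 to 305 CPM. All 4 tested neutrophil markers rose as well, from a sum of 3.63 to 5.31 CPM to 22.5 to 51.0 CPM. Of the 4, 3 passed the filter only through the mutants. Among the entries named *mmp13a*, 1 was at 0 in every library and another had counts. All 12 markers of pigment epithelium and pigment cells rose, from 57.7 to 159.9 CPM to 1054 to 1478 CPM, 10 of them with a wild-type library over the filter level. These sums were higher in mutants, as were *stat1a*, *stat2*, *stat3*, *stat6*, *jak1*, *socs3a*, *socs3b* and the interleukin-4 receptor genes. The part of these cell types in those results was not tested. *csf3r* and *ptprc* rose too, but they are themselves counted in the neutrophil sum and the microglia and macrophage sum.

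Lymphocyte markers, given beside *stat4*, *il12rb2* and *jak3*, were low in both genotypes. Their sum was 2.91 to 5.61 CPM in wild-type siblings and 4.35 to 6.48 CPM in mutants, the 2 tested genes, *il2rb* (log2FC 0.06) and *rag1* (0.53), did not pass edgeR's test, and *cd8a*, *pax5* and *nkl.1* had no count in any library. Müller glia markers overlapped between the genotypes in sum, at 1219 to 1686 CPM against 1310 to 1357 CPM, with 4 higher and 1 lower of 11 tested (median log2FC 0.14). The ratio of the mean sums, mutants over wild-type siblings, was 0.931, and 1.1 without *glula*. Of 16 cone markers 14 fell and 1 rose, *opn1lw1*, for a long-wavelength opsin (log2FC 0.99), with a sum that went from 19522 to 20391 CPM to 8129 to 9621 CPM, beside the falls of *prlra* and *stat5a*, and the part of cone loss in those falls was not tested.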

How the data were processed

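The 4 *bbs2* -/- and 4 wild-type sibling libraries were grouped by the labels. Per the study's methods and the submitters' processing notes, the authors aligned reads to GRCz11 with STAR and used DESeq2 1.30.1 in R 4.0.4. The authors deposited raw counts per gene, used for all tests, and TPM, which correct for gene length. Normalized counts and a table of the authors' comparison (mean, fold change, standard error, test statistic, p-value and FDR) were not used. The tool behind the TPM and the strand setting of the counts are not given in the sources.

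Counts were tested in edgeR 4.0.16 (R 4.3.3) with TMM scaling, the default filter (minimum count 10), robust quasi-likelihood fits on genotype alone, and Benjamini-Hochberg adjustment over 17144 genes, called at FDR 0.05. The biological coefficient of variation was 13.6%, and 6586 genes had an unadjusted p under 0.05. The SE is the log2FC divided by the root of F, and intervals are 95%. Replicate libraries differed beyond sampling noise (chi-square per degree of freedom 5.51 to 12.6 between pairs). Log2 TPM took a pseudocount of 0.1. Genes below the filter are given as counts with exact intervals, which cover counting error only, or against a floor of 3 counts per group. Alternatives were RLE scaling, library totals, no filter, DESeq2 1.42.0, limma-voom and limma on log2 TPM (limma 3.58.1), a pseudocount of 1, the replicate block and leaving out each library. List counts under these settings were added after seeing the data. The fitting steps were tested on simulated data.

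The members and lists were chosen with earlier results of these data known. Named are all members, *bbs2*, *jak2b*, *jak3*, *tyk2* and, of each list, called genes by smallest p, up to 4 in each direction, fewer where space was short. Other copies or relatives of some named genes are given beside them. Genes below the filter were picked by eye. Some genes stand in more than 1 list. A list of target genes in which a withheld item stands is not reported here. Promoter and protein sequences were not analysed here.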

Additional observations from a re-analysis of the deposited data

Results flagged for a closer look

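Among 94 groups of 4 libraries (47 genes in each genotype), 7 had a library whose gap to the nearest other library exceeded Dixon's limit for 4 values at the 95% level, as a share of the group's range, and chance alone flags about 5% of groups. In wild-type siblings, *stat1b* was at 1.99 CPM in wild-type 1 against 0.379 to 0.5 CPM in the others, and *stat4* at 11.4 CPM in wild-type 2 against 5.05 to 5.47 CPM. *stat3* was at 27.6 CPM in wild-type 3 against 32.8 to 33.9 CPM, a gap that is small beside the mutant level. *stat5b* was at 42.6 CPM in wild-type 1 against 48.4 to 49.0 CPM, and *cntfr* at 22.7 CPM in wild-type 1 against 19.3 to 19.5 CPM. In mutants, mutant 3 was low for *stat4*, at 0.609 CPM against 4.63 to 4.82 CPM, and for *il4r.1*, at 3.65 CPM against 7.20 to 7.63 CPM.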

How the results depend on the processing

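The count of members that rose was 5 under every alternative run, and the count that fell was 1, or 0 with library totals and on log2 TPM (0 to 1 when single libraries were left out). Of 150 member values 144 kept direction and side of the threshold, as did 767 of 810 for 54 other genes that the naming rule picked, of which 42 lost their call and 1 turned. *jak2a* turned to 0.0360 with library totals and 0.0180 without mutant 4 (-0.150 to 0.0180 when single libraries were left out), and *jak2b* to 0.0322 with library totals, all far from the threshold. Library totals shifted the median of all genes by 0.10, so their log2FC are to be read relative to it. With them 3324 genes rose and 1335 fell (71.3% higher against 54.0%), and on log2 TPM 2223 rose and 1410 fell (61.2% higher). *stat1b* minus *stat1a* turned to -0.32 with a pseudocount of 1 and ran from -0.31 to 0.51 when single libraries were left out, as *jak2b* minus *jak2a* did from -0.0842 to 0.10 and *stat5b* minus *stat5a* from 0.03 to 0.21. The cause was not tested. With the replicate block 5 members rose and 1 fell, and over all genes 2550 rose and 2209 fell. Deviations of same-numbered libraries correlated at -0.07 to 0.06, and the best match of each wild-type library was at 0.06 to 0.08. Values this small cannot decide whether the shared numbers pair the libraries. Few counts lie behind *stat1b* and *jak3*.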

Other observations

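The lists of receptors, ligands, kinases, inhibitors, adaptors and targets held 161 genes of the table, of which 103 were tested and 58 fell below the filter, 11 of these with no count at all. Among the 47 others below the filter, mutant libraries lay wholly above wild-type libraries for 12 (25.5%), against 5.33% of all 9713 genes below the filter with a count. The sets were not matched for count level, and a gene without a count in every mutant library cannot lie wholly above. The genes named next were picked for description after their values were seen. *lepa*, a copy of the leptin gene, had 0 counts over the wild-type and 75 over the mutant libraries. With the wild-type group set to a floor of 3 counts in sum this is a 19.3-fold difference. The exact 95% interval of its ratio began at 15.3 and had no upper limit. The other leptin copy, *lepb*, had 10 and 128 counts (ratio 9.86, exact 95% interval 5.19 to 21.1), and its groups overlapped. *il21r.1*, for a receptor of the common gamma chain family, had 4 and 50 counts (ratio 9.63, exact 95% interval 3.54 to 36.7), *epor*, for the erythropoietin receptor, 5 and 43 counts (ratio 6.63, 2.63 to 21.4), and *bcl3*, a STAT3 target in mammals, 7 and 48 counts (ratio 5.28, 2.38 to 13.8). *ifngr1*, for an interferon gamma receptor chain, had 2 and 27 counts (ratio 10.4, 2.61 to 90.3). The similarly named *ifngr1l* had 576 and 775 counts and did not pass the test (log2FC 0.05, edgeR adjusted p = 0.823). The intervals of these ratios cover counting error only.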
